A study of Mus musculus with 6 samples.

Results

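Glycoproteins and proteoglycans of the extracellular matrix were followed in mouse fibroblasts treated with an antisense oligonucleotide against the lncRNA Ntep. The set holds 48 genes chosen by name: 13 microfibril and elastic fibre proteins, 4 latent TGF-beta binding proteins, 5 lysyl oxidases, 5 thrombospondins, 10 adhesive and matricellular glycoproteins, 7 small leucine-rich proteoglycans, and 4 large proteoglycans and nidogens. All 48 were on the array, with 70 of its 55681 non-control probes and 48 of its 35527 gene names. For each gene with several probes, the brightest probe stood for it.

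3T3 cells, an immortal line that was derived from mouse embryo fibroblasts, received GapmeR Ntep or GapmeR control, which the labels give as 50 nM for 48 h. A GapmeR is a short antisense oligonucleotide whose DNA core recruits RNase H to cut the RNA it pairs with, and GapmeR control served as the reference. Both labels share the cell line, dose and time and carry no genetic change by the labels. The RNA came from 3 independent experiments with 1 array per GapmeR in each, so that each label has 3 arrays, read in 1 color on 1 slide. The experiments are repeats with 1 cell line, and whether an array holds RNA of 1 culture or of several is not given in the sources used here. Intensities below are quantile-normalized linear values, given in the order of experiments 1, 2 and 3, and a log2 difference is always GapmeR Ntep minus GapmeR control.

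The single Ntep probe (A630089N07Rik) read 472, 91.5 and 226 on the arrays labelled GapmeR Ntep and 271, 272 and 361 on the arrays labelled GapmeR control. Experiment 1 thus went against its label, and the difference of -0.48 (SE 0.58, limma adjusted p = 0.632, n = 3 arrays each) was smaller than the spread between arrays. Every direction below is therefore that of the label, and the results without experiment 1 stand beside the counts. Between 43.7% and 53.3% of probes were well above background on the 6 arrays, and none was saturated. All 8 fibroblast markers were well above background on every array, and 7 of them were lower under GapmeR Ntep, none past the adjusted limit. Their summed intensity ran from 499394 to 652354 on these arrays and from 727803 to 801192 on the control arrays. Markers of fat, epithelium, endothelium and smooth muscle were well above background on all arrays for 2 genes each, and none passed the adjusted limit. Summed intensity did not overlap between the labels for fat (1775 to 6880 under GapmeR Ntep, 756 to 1039 under control) and endothelium (728 to 806 against 559 to 635), and overlapped for the other 2 lists (2727 to 5354 against 1767 to 3750 and 98371 to 187619 against 67513 to 195664). Most of the fat sum came from Fabp4 (6498, 1495 and 2262 against 549, 672 and 722). Pparg was also higher (log2 0.68), Plin1 was lower (-0.83), and Adipoq, Cebpa and Lep were too dim to be tested. The part of any of these marker lists in the results below was not tested.

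Fibroblasts lay down the matrix by secreting fibronectin and fibrillins, which assemble outside the cell into fibrils and microfibrils. Microfibrils hold latent TGF-beta through its binding proteins and serve as a scaffold on which elastin is deposited and cross-linked by lysyl oxidases. Small leucine-rich proteoglycans sit on collagen fibrils, whereas large proteoglycans and nidogens organise the pericellular space and the basement membrane. Matricellular proteins such as osteopontin and thrombospondins signal to cells rather than bear load.

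Of the 48 genes, 42 reached a mean intensity of 50 under at least 1 label and were tested. Most of them read lower under GapmeR Ntep than under GapmeR control. The log2 difference was below 0 for 33 of the 42 (78.6%, against 45.6% of the 22034 genes tested on the whole array), and 28 (66.7%) were lower in all 3 experiments, against 27.0% of all genes. The median difference of the members was -0.66, that of all genes 0.06. By experiment the members' median was -0.77, -0.41 and -0.84. Among the 42, 5 reached the minimum under 1 label only and so had to differ. The 31 genes well above background on all 6 arrays included 23 that were lower, 22 of them in every experiment, with a median of -0.65. In RNA from whole cultures, fewer cells of a type and less RNA per cell cannot be told apart.

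**Figure D1:**
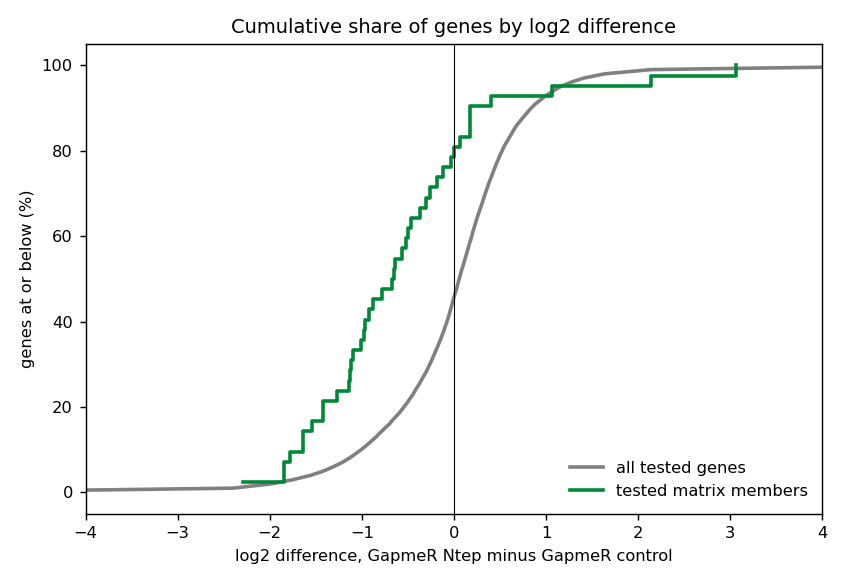
Cumulative share (%) of the 42 tested matrix genes (green) and of the 22034 genes tested on the array (grey) by log2 difference between GapmeR Ntep and GapmeR control. The green curve lies to the left of the grey one over most of the range, with 78.6% of the matrix genes below 0 against 45.6% of all genes.

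Few of these differences passed on their own. With a Benjamini-Hochberg adjusted p under 0.05 over all tested probes (limma, two-sided, no pairing), 4 of 42 members were called, 2 higher and 2 lower, which is 9.52% against 5.16% of all genes (1.98% higher and 3.18% lower). Spp1 and Emilin2 rose, Ltbp1 and Fbn1 fell. At the limits of the study's own filter, a fold change of at least 2 with an unadjusted p under 0.01, 8 members passed (19.0%, against 7.89% of all genes), 2 higher and 6 lower, against 2.89% and 5% of all genes. These were Spp1, Emilin2 and Ltbp1 with Efemp2, Postn, Mfap2, Fmod and Hspg2, of which Fmod was not well above background on any array. With 75th percentile scaling in place of quantile normalization, the median of all genes was 0.20 in place of 0.06 and that of the members -0.63. This setting left 2 higher and 1 lower member past the adjusted limit (3.75% of all genes) and 2 higher and 2 lower past the other (8.02%), without Efemp2, Hspg2, Postn and Fmod (unadjusted p from 0.0187 to 0.0446). With normexp background correction the adjusted limit was passed by 1 higher and 3 lower members (7.68% of all genes), the fold and p limits by 2 higher and 3 lower (5.92%), without Postn, Mfap2 and Fmod. The intensities of the labels did not overlap for 18 members (42.9%, against 32.6% of all genes), 15 of them lower (15.5% of all genes) and 3 higher (17.1%).

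Arrays of the same experiment varied together, and a fit with the experiments as blocks called more genes. In it 15 members passed the adjusted limit, 3 higher and 12 lower, which is 35.7% against 13.9% of all genes (6.51% higher and 7.42% lower). Spp1, Emilin2, Ltbp1 and Fbn1 were among the 15, and the other 11 are named with their blocked value below. Without experiment 1, whose Ntep probe went against its label, 5 of 44 tested members passed in the unpaired fit, against 2.84% of all genes, and the median was -0.68. These were Spp1 (adjusted p = 0.0461) and Emilin2 (0.0488), higher, and Vtn (0.0461), Ogn (0.0461) and Postn (0.0484), lower. With any 1 array left out, fewer adjusted calls remained, among members as among all genes. Spp1, Emilin2 and Ltbp1 met the fold and p limits in each of these settings. With all 6 arrays, 19 of the 42 members and 5502 of the 22034 genes had an unadjusted p under 0.05 in limma. No member passed the adjusted limit without GapmeR control replicate 2, without GapmeR control replicate 3 or without GapmeR Ntep replicate 3, where limma called 0%, 0.023% and 0% of all genes. There 12, 12 and 13 members had an unadjusted p under 0.05, and the share of all genes at that limit was not counted. In the same 3 settings 4, 3 and 5 members met the fold and p limits, against 4.87%, 5.25% and 5.81% of all genes. The adjusted limit was passed by 1 member without GapmeR control replicate 1 and by 2 without GapmeR Ntep replicate 1 (0.467% and 1.77% of all genes), and the fold and p limits by 9 and 4 (8.46% and 6.6%). Of the members that met only the fold and p limits, Efemp2 lost them without any 1 array (unadjusted p from 0.00994 to 0.0316, with a fold under 2 at the lowest) and Hspg2 without any array but GapmeR control replicate 2 (0.00897 to 0.0254, likewise), while Postn, Mfap2 and Fmod lost them without GapmeR control replicate 2, GapmeR control replicate 3 or GapmeR Ntep replicate 3, where their unadjusted p ran from 0.0118 to 0.0193. Postn lost them also without GapmeR Ntep replicate 2, Mfap2 and Fmod also without GapmeR Ntep replicate 1, with limma's unadjusted values at 0.0143, 0.0148 and 0.0144.

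**Figure D2:**
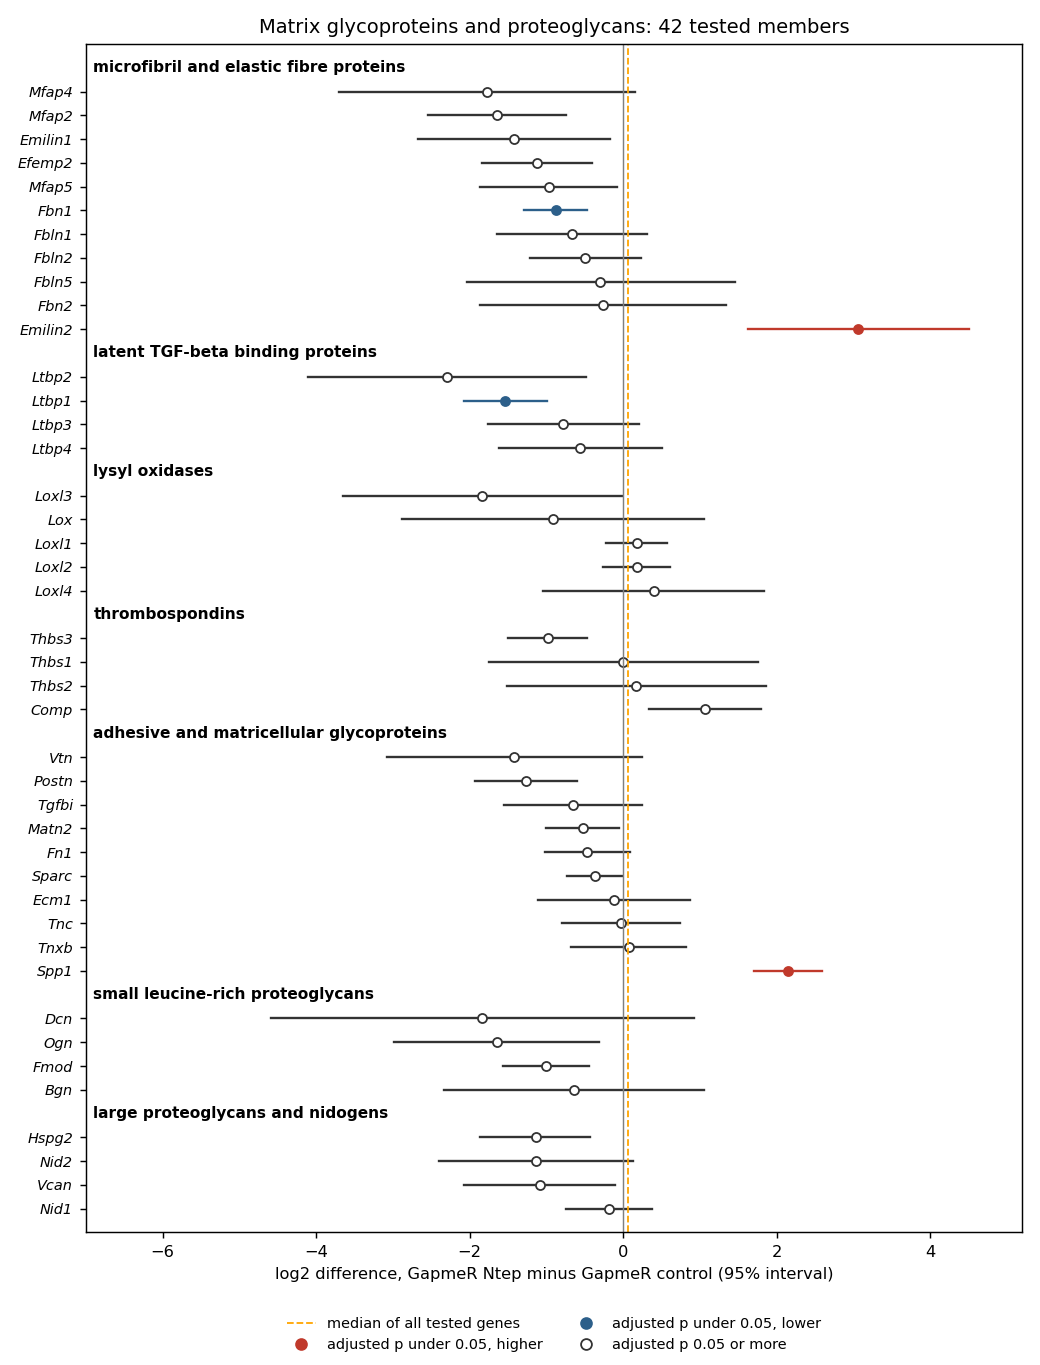
Log2 difference (GapmeR Ntep minus GapmeR control) of the 42 tested members with its 95% interval from limma, by role. Filled points passed the adjusted limit (Spp1 at 2.14 and Emilin2 at 3.06 higher, Ltbp1 at -1.54 and Fbn1 at -0.88 lower), the dashed line marks the median of all tested genes at 0.06, and the points of Mfap2, Vtn, Comp and Fmod rest on at least 1 label with no array well above background.

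The genes past the adjusted limit are shown here with the 250 bases before their start, to place the members that moved in either direction next to each other. The sequences are those of RefSeq (GRCm38.p6), written 5′ to 3′ on the strand of the gene, from the start site that lies furthest upstream, and 33 of the 48 members had an entry. Spp1 occupies chr5:104434861-104435110 (+), Emilin2 chr17:71311557-71311806 (-), Ltbp1 chr17:75005279-75005528 (+) and Fbn1 chr2:125506439-125506688 (-). Capitals mark any match, on either strand, to 5 motifs: TGANTCA of AP-1, TGACGTCA of the cAMP response element, TATAAA of the TATA box, GGGCGG of the GC box and the CCAAT box.
Spp1: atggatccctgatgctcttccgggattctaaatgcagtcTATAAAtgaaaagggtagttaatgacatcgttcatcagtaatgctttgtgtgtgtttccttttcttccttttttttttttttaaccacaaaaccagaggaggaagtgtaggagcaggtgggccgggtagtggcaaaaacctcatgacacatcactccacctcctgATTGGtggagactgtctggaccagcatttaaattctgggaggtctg
Emilin2: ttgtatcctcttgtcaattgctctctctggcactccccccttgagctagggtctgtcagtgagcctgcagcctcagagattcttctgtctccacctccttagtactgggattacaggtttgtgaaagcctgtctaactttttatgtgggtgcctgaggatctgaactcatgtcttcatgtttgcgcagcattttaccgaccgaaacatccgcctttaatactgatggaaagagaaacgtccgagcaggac
Ltbp1: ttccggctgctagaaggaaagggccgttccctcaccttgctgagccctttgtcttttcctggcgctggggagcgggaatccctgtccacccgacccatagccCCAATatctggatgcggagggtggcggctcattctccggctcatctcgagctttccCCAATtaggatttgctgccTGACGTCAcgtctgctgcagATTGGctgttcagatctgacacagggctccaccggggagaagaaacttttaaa
Fbn1: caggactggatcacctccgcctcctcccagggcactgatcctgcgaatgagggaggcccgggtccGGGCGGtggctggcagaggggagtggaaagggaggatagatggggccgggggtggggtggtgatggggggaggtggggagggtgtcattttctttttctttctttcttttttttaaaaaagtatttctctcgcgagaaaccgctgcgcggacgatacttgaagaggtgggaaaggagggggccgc
The Spp1 window held 1 TATAAA and 1 CCAAT match, the Ltbp1 window 1 cAMP response element and 3 CCAAT matches, and the Fbn1 window 1 GGGCGG, while none of the 5 motifs matched in the Emilin2 window. Over all 32851 promoter windows of the same length, 6.75% held the AP-1 motif, 1.55% the cAMP response element, 12.4% TATAAA, 32.7% GGGCGG and 33.8% CCAAT. In the 45 windows of members these shares were 6.67%, 2.22%, 20%, 55.6% and 24.4%. A match describes letters only, and neither binding nor activity was measured.

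Among the adhesive and matricellular glycoproteins, Spp1 moved most. It encodes osteopontin, a secreted phosphoprotein that binds integrins and CD44, and its probe lies at chr5:104868502-104868561 (mm9). It read 7883, 6674 and 7764 under GapmeR Ntep and 1951, 1605 and 1513 on the control arrays. The lowest GapmeR Ntep array thus stood well above the highest control array, and the spread within each label was small. The rise from 1690 ± 231 to 7441 ± 666 (mean ± SD, n = 3) was 4.42-fold (log2 2.14, SE 0.18, limma adjusted p = 0.0157). It was 2.01, 2.06 and 2.36 on the log2 scale in the 3 experiments, and the adjusted p was 0.112 without GapmeR control replicate 2, 0.0799 without GapmeR control replicate 3 and 0.0786 without GapmeR Ntep replicate 3.

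Macrophages and bone cells also make osteopontin, so their markers are given beside it. Of 9 macrophage markers, 5 were well above background on all arrays, while Ptprc, Adgre1 (listed as Emr1) and Tyrobp were so on no array. Their summed intensity ranged from 42626 to 75446 on the arrays labelled GapmeR Ntep and from 20057 to 27595 on the control arrays. Of the 6 tested, 5 were higher and 1, Lyz2 (log2 -0.18), was lower. Higher besides Cd68 were Csf1r (log2 3.19, limma adjusted p = 0.151), Itgam (1.26, 0.0881), Cd14 (1.11, 0.0627) and Fcer1g (0.41, 0.42). Cd68, a lysosomal glycoprotein, alone passed the adjusted limit (log2 1.21, adjusted p = 0.0287). It kept the call without GapmeR Ntep replicate 2 (adjusted p = 0.0489), and without any other single array the adjusted p ranged from 0.0590 to 0.139. None of the 6 bone markers was well above background on all arrays, and their summed intensity did not overlap, at 252 to 328 against 217 to 237. Of those tested, 3 were higher, namely Dmp1 (log2 1.48, limma adjusted p = 0.0604), Bglap (1.36, 0.0646) and Runx2 (0.90, 0.462), and Alpl was lower (-1.21, 0.121). Whether either group of markers has a part in the result for Spp1 was not tested.

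Of the other 9 genes of this group, 8 had a difference below 0, and none passed the adjusted limit. Fn1, fibronectin, the main substrate of cell adhesion, read 56788, 84995 and 56261 against 99826, 89900 and 80188. Experiments 1 and 3 were lower under GapmeR Ntep and experiment 2 nearly level, so the labels overlapped (log2 -0.47, SE 0.23, adjusted p = 0.263). Sparc, a collagen-binding glycoprotein, read 87704, 93585 and 89243 against 117546, 117546 and 115466. Every GapmeR Ntep array lay below every control array, yet the difference was small (log2 -0.37, SE 0.15, adjusted p = 0.183) and passed the limit in 4 of the alternative fits, with adjusted p from 0.0344 to 0.0468. With 75th percentile scaling it was -0.14 (adjusted p = 0.657).

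Postn, periostin, which links fibronectin to collagen cross-linking, was dim at 73.7, 60.5 and 63 against 110, 171 and 208. The labels did not overlap, and 2 of 3 GapmeR Ntep arrays and all control arrays were well above background. It was 2.41-fold lower (log2 -1.27, SE 0.27, unadjusted p = 0.00343), past the fold and p limits but not the adjusted one (0.0544). With normexp the difference was -0.54, and with 75th percentile scaling the unadjusted p was 0.0197, so that neither setting met these limits. Vtn, vitronectin, had 10 spots per array, and an array counted as well above background only if all 10 were. By this rule Vtn was so on no GapmeR Ntep array and on 1 control array, with 27.5, 21 and 20 against 20, 119 and 92. Experiment 1 ran the other way, and the labels overlapped (means 22.8 ± 4.08 and 77.1 ± 51.3, adjusted p = 0.257). Between the label means the bound was at least 1.17-fold in favour of control, which rests on the control arrays of experiments 2 and 3. Matn2 (-0.52) and Tgfbi (-0.65) were lower in all 3 experiments without passing, while Ecm1 (-0.12), Tnc (-0.03) and Tnxb (0.07) differed by less than the spread between arrays.

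The microfibril and elastic fibre proteins were lower in 10 of 11 tested cases (median -0.88), 8 of them in every experiment, and Emilin2 was the remaining one. Fbn1 encodes fibrillin-1, the backbone of microfibrils, and its probe lies at chr2:125126727-125126786 (mm9). It read 2290, 2380 and 2702 against 4990, 4329 and 4209. No GapmeR Ntep array reached the control range, and both labels were tight. The fall from 4509 ± 420 to 2457 ± 217 was 1.83-fold (log2 -0.88, SE 0.17, adjusted p = 0.0439). The call lay close to the limit: without any 1 array its adjusted p ranged from 0.0736 to 0.171, and it was 0.0761 without experiment 1 and 0.0659 with 75th percentile scaling. Fbn2, a fibrillin of developing tissue, was well above background on 3 of the 6 arrays (log2 -0.26). It was higher under GapmeR Ntep in experiments 1 and 2 (0.70 and 0.71), and its sign rests on the control array of experiment 3 (159, difference -2.20). Fbln5, which binds elastin, gave -0.30, with 0.05 in experiment 2.

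Emilin2, an elastin microfibril interfacer of blood vessels and other elastic tissues, went the other way. Its probe at chr17:71601638-71601697 (mm9) read 6034, 1944 and 1278 against 387, 296 and 227. All GapmeR Ntep arrays were far above the control arrays, with experiment 1 highest. The mean rose from 303 ± 80.2 to 3085 ± 2575, and the mean log2 difference of 3.06 (SE 0.59, 8.32-fold, adjusted p = 0.0445) was the largest among the tested members. It was 3.96, 2.72 and 2.49 by experiment. Without GapmeR Ntep replicate 1, the brightest array, the difference was 2.41 and still called (adjusted p = 0.0467), whereas leaving out any other single array raised the adjusted p to between 0.0695 and 0.163. With normexp the difference was 2.34 and the adjusted p 0.117, and that p was 0.135 with no intensity minimum and 0.120 by the methods' t-test. Its relative Emilin1, which also deposits with elastin, read 116, 422 and 224 against 415, 803 and 626. It was lower in each experiment although the labels overlapped (log2 -1.42, SE 0.51, adjusted p = 0.159), and it passed with the experiments as blocks (adjusted p = 0.0395). Both emilins were measured well above background on every array, with differences of opposite sign.

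Further genes of the microfibril had differences below 0. Efemp2, fibulin-4, which brings lysyl oxidase to elastin, read 9503, 12031 and 9000 against 32816, 18146 and 17841. The labels did not overlap, and the gap was widest in experiment 1, where the control array stood far above the others. It was 2.18-fold lower (log2 -1.12, SE 0.29, unadjusted p = 0.00866, adjusted p = 0.0813), past the fold and p limits only, and with the experiments as blocks it met neither limit (unadjusted p = 0.0152). Mfap4, a microfibril-associated glycoprotein, read 236, 1229 and 459 against 702, 2821 and 2713. Both labels were low in experiment 1, which made the ranges overlap (log2 -1.78, SE 0.79, adjusted p = 0.229), and the blocked fit called it (adjusted p = 0.0436). Mfap2, which binds fibrillin, read 20, 40 and 20 against 56.7, 101 and 85.2. This probe was well above background on no GapmeR Ntep array and on all control arrays, so that by the main processing it was at least 1.47-fold lower (means 26.7 ± 11.5 and 81 ± 22.5, unadjusted p = 0.00404, adjusted p = 0.0588, with blocks 0.0334). With normexp the log2 difference was -0.49 (limma adjusted p = 0.145), which is smaller in size than this bound. A dimmer Mfap2 probe, not tested, showed no such fall, at 20, 55.2 and 20 against 24.2, 34.8 and 21.4. It was well above background on 1 GapmeR Ntep array and on no control array. Mfap5 (-0.97), Fbln1 (-0.67) and Fbln2 (-0.50) were lower in all 3 experiments without passing either limit. Eln and Efemp1 were not well above background on any array and were not tested.

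**Figure D3:**
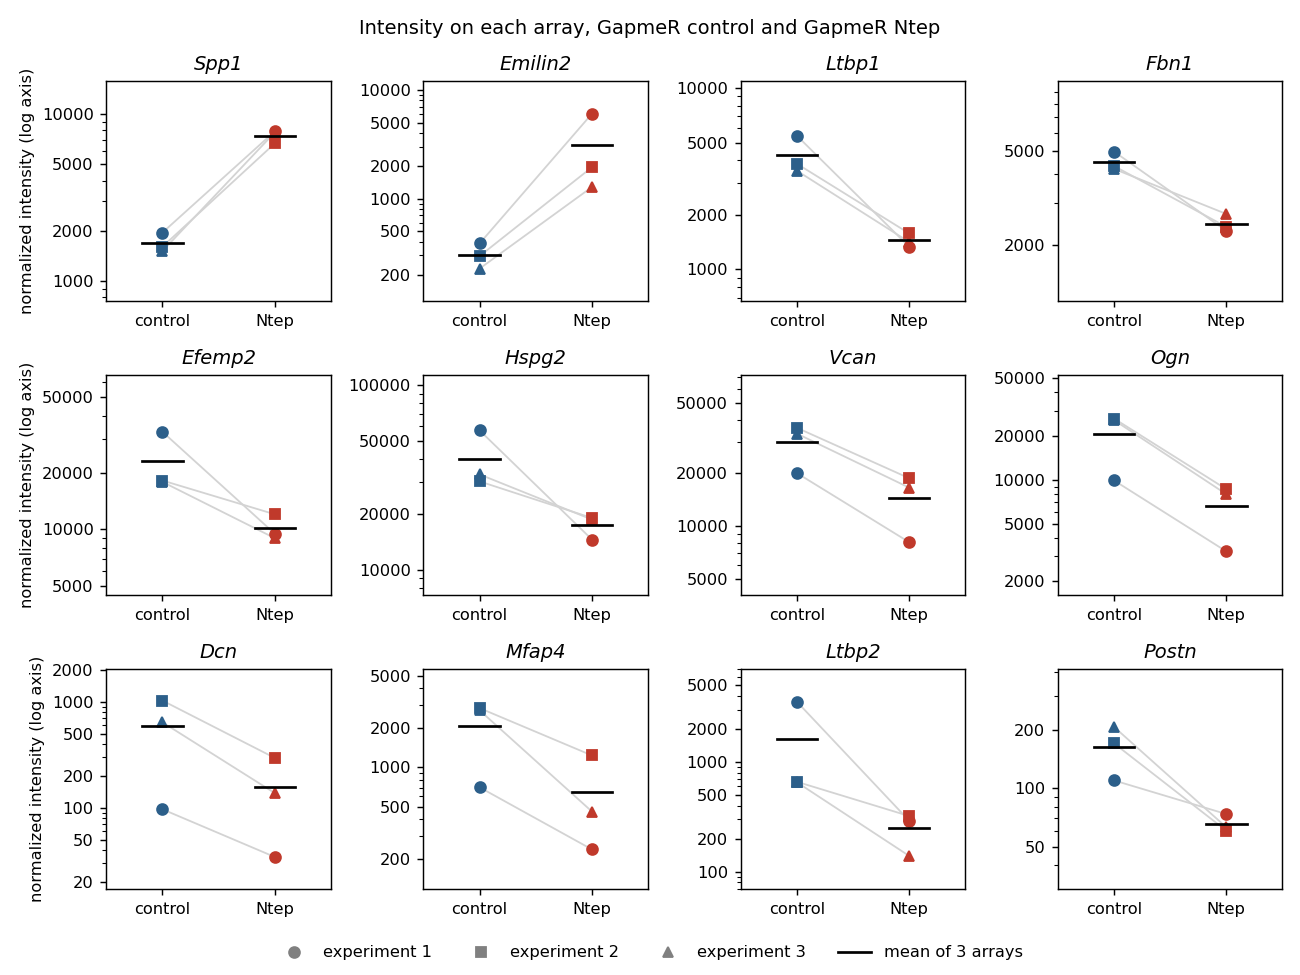
Normalized intensity (log axis) of 12 members on each array, control left and GapmeR Ntep right, with grey lines joining the arrays of 1 experiment and black bars for the mean of 3 arrays. Spp1 and Emilin2 lie higher and the other 10 lower under GapmeR Ntep in every experiment, and Dcn, Mfap4, Ogn and Vcan show experiment 1 low under both labels.

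The latent TGF-beta binding proteins, which tether the inactive growth factor to the matrix, were lower in all 4 cases and in all 3 experiments (median -1.16). Ltbp1, with a probe at chr17:75790530-75790589 (mm9), read 1334, 1580 and 1416 against 5463, 3825 and 3502. The GapmeR Ntep arrays formed a narrow band below the control arrays. The fall from 4263 ± 1051 to 1444 ± 125 was 2.90-fold (log2 -1.54, SE 0.22, adjusted p = 0.0287). The adjusted p was 0.131 without GapmeR control replicate 2, 0.103 without GapmeR control replicate 3, 0.0552 without GapmeR control replicate 1, 0.0634 without GapmeR Ntep replicate 1, 0.110 without GapmeR Ntep replicate 3 and 0.0501 without experiment 1. The 2-fold change at p under 0.01 held in each of these settings.

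Ltbp2, which binds fibrillin-1 but not TGF-beta, had the lowest difference in the unpaired fit. It read 291, 321 and 139 against 3541, 659 and 653. The control array of experiment 1 stood far above the other control arrays, and the labels did not overlap. Its difference (log2 -2.29, SE 0.74, adjusted p = 0.127) passed neither limit, and the values within experiments were -3.61, -1.04 and -2.24. Without GapmeR control replicate 1 it was -1.48, and with array weights (-2.14) Mfap4 and Dcn were lower (-2.33 each). Ltbp3 (-0.78) and Ltbp4 (-0.56) also read lower in every experiment, with overlapping ranges and adjusted p of 0.294 and 0.469.

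The lysyl oxidases, which cross-link collagen and elastin, had 2 of 5 genes lower, 3 higher and none past either limit (median 0.18). Loxl3 read 23.2, 179 and 111 against 230, 311 and 295. It was lower on each GapmeR Ntep array than on any control array, by most in experiment 1 (log2 -1.84, SE 0.74, adjusted p = 0.195). Lox, the founding enzyme of the family, differed by -0.92 with wide spread between experiments (adjusted p = 0.508), and it passed in the blocked fit (adjusted p = 0.0378). Loxl1 differed by 0.18 (95% interval -0.22 to 0.57) and Loxl2 by 0.18 (-0.26 to 0.61). Loxl4 gave 0.40 by its brightest probe and -0.40 by a second probe, so its direction is not settled. One probe listed for Loxl2 maps to chromosome 2 in mm9 whereas the gene lies on chromosome 14, and that probe gave -0.05.

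Thrombospondins bind calcium and many matrix partners, and of 4 tested members 1 was lower. Thbs3 read 12541, 18250 and 16910 against 27362, 33581 and 32606. The labels were well apart, and a second probe that overlaps it gave -0.91 beside -0.98 (SE 0.21, adjusted p = 0.0541), just outside the adjusted limit and, at 1.98-fold, just under the fold limit. With blocks the adjusted p was 0.0352. Thbs1 (0.00), known for activating latent TGF-beta, and Thbs2 (0.17), which restrains vessel growth, did not differ beyond the spread between arrays, with 95% intervals from -1.75 to 1.76 and from -1.52 to 1.86. Comp, a cartilage thrombospondin, was well above background on 2 GapmeR Ntep arrays and on no control array, at 76.5, 83.1 and 44.5 against 38.1, 30.2 and 26.6. By the main processing it was at least 1.28-fold higher (means 68 ± 20.6 and 31.6 ± 5.88, adjusted p = 0.0917, with blocks 0.0454). With normexp the log2 difference was 0.27 (limma adjusted p = 0.444), which is smaller than this bound. Of 7 cartilage markers, 2 were well above background on all arrays, and the summed intensity of the 7 was 654 to 738, within the control range of 466 to 1603. The high control sums came mostly from Col11a2 (245, 269 and 196 against 226, 1072 and 1052, log2 -1.43). Acan (0.62), Sox9 (0.42) and Col2a1 (0.26) were higher under GapmeR Ntep, and none of the tested cartilage markers passed the adjusted limit. Thbs4 lay at the floor on every array and was not tested.

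The small leucine-rich proteoglycans bind collagen fibrils and set their spacing, and all 4 tested members were lower in every experiment (median -1.33). Ogn, osteoglycin, read 3218, 8633 and 7972 against 9910, 26440 and 25805. Experiment 1 was low under both labels, and the difference within experiments was nearly constant at -1.62, -1.61 and -1.69. The unpaired fit did not call it (log2 -1.64, SE 0.55, adjusted p = 0.136), and the blocked fit did (adjusted p = 0.0310). Dcn, decorin, which also binds TGF-beta, read 34.5, 296 and 138 against 97.1, 1027 and 641. The ranges overlapped because of experiment 1, with 1 GapmeR Ntep array and all control arrays well above background (log2 -1.84, SE 1.13, adjusted p = 0.364, with blocks 0.0310). Fmod, fibromodulin, was not well above background on any array, at 24.9, 35.2 and 27.1 against 47.3, 59 and 69, so no fold is given although it met the fold and p limits numerically and passed with blocks (adjusted p = 0.0443). Bgn, biglycan, was lower by 0.64 with overlapping ranges. Lum and Aspn were each well above background on 1 array and Prelp on none, and these 3 were not tested.

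The large proteoglycans and nidogens were lower in all 4 cases and in every experiment (median -1.11). Hspg2 encodes perlecan, the heparan sulfate proteoglycan of basement membranes, and read 14576, 19073 and 18702 against 56820, 30086 and 32816. The labels did not overlap, with the control array of experiment 1 highest. It was 2.21-fold lower (log2 -1.14, SE 0.29, unadjusted p = 0.00768, adjusted p = 0.0770), past the fold and p limits only, and with blocks it met neither limit (unadjusted p = 0.0218). A second probe gave -1.02. Vcan, versican, a hyaluronan-binding proteoglycan of loose matrix, read 8070, 18637 and 16475 against 19942, 36050 and 33418. Each GapmeR Ntep array was below every control array (log2 -1.09, SE 0.40, adjusted p = 0.163), and with blocks it passed (0.0344). This probe lies at chr13:89795080-89795139 (mm9), while another at chr13:89851810-89851869 gave -0.18 (adjusted p = 0.660), and the difference between these probes was not tested. Nid2, nidogen-2, read 1258, 2950 and 2543 against 2372, 6600 and 6347. Experiment 1 was again low under both labels (log2 -1.13, SE 0.52, adjusted p = 0.241, with blocks 0.0342). Nid1, nidogen-1, which connects laminin with collagen IV, read 67340, 60657 and 52370 against 86879, 64579 and 55308. Its difference of -0.18 (SE 0.23, adjusted p = 0.653) had the opposite sign with 75th percentile scaling (0.05), which shifts the median of all genes upwards, and its other probes gave 0.23 and 0.19.

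**Figure D4:**
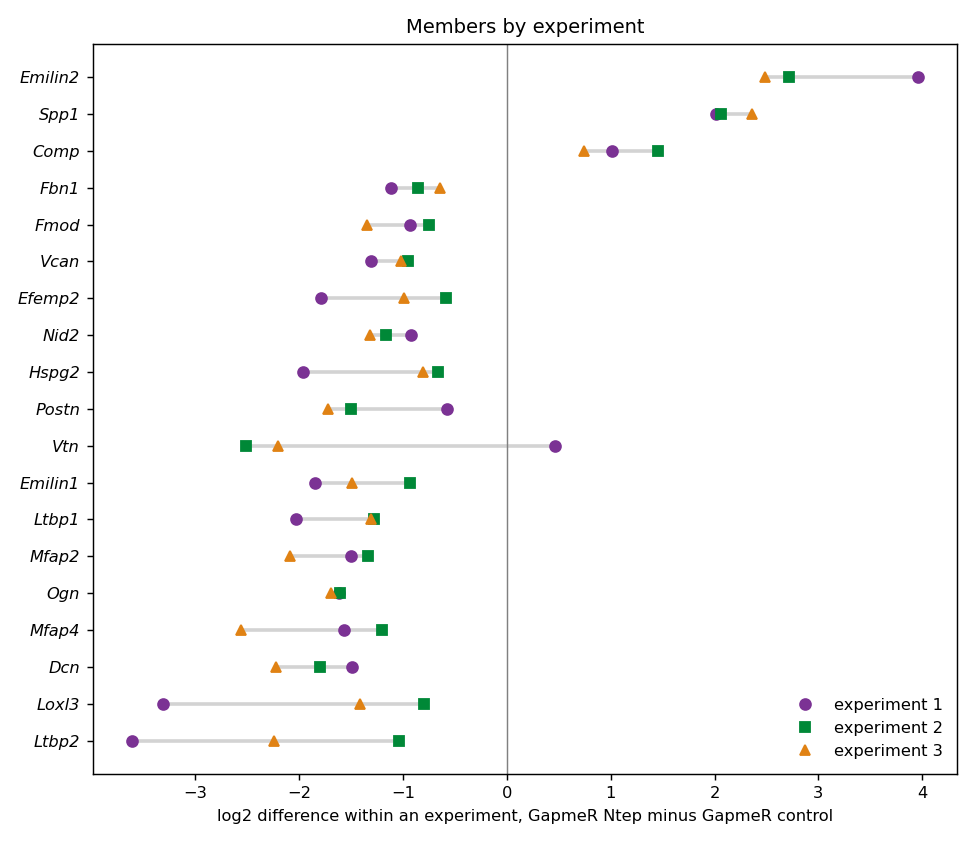
Log2 difference (GapmeR Ntep minus GapmeR control) within each of the 3 experiments for the 19 members past the adjusted limit or with a difference of at least 1 in size. Only Vtn changes sign between experiments, Ogn varies least (from -1.69 to -1.61), and Ltbp2 and Loxl3 are lowest in experiment 1. The Loxl3 point of experiment 1 rests on a GapmeR Ntep value of 23.2, near the floor.

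Several members differed between the experiments under both labels. In experiment 1 the intensity was at least 2-fold above the mean of the other experiments under both labels for 4 members (9.52%, against 2.85% of all genes), namely Lox, Loxl4, Thbs1 and Fbln5. It was at least 2-fold below under both labels for 5 (11.9%, against 3.52%), namely Dcn, Mfap4, Ogn, Nid2 and Thbs2. Lox stood 1.70 and 1.93 log2 units above under GapmeR Ntep and GapmeR control, while Dcn differed by -2.55 and -3.06. The limit of 2-fold was chosen after the values were seen, and these counts are a description. Across the 42 tested members the log2 difference had a Spearman rho of 0.08 with the length of the gene, against -0.13 over 13404 genes of the array, as a description over genes that share the 6 arrays.

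Enzymes that build the glycosaminoglycan chains of proteoglycans were looked up as a list of 43 genes, of which 34 were tested. Of these, 23 were lower and 11 higher (median -0.22), and 3 passed the adjusted limit (8.82%, against 5.16% of all genes), 2 higher and 1 lower. Chpf and Chpf2, chondroitin polymerising factors, rose. Chpf2 read 8600, 7667 and 7620 against 2756, 2647 and 2626, with no overlap (log2 1.57, SE 0.15, adjusted p = 0.0182), and its other probes gave 1.69 and 0.51. Chpf read 31237, 26223 and 31058 against 15516, 11299 and 12639, again without overlap (log2 1.17, SE 0.19, adjusted p = 0.0341). Ust, which sulfates uronic acid in chondroitin and dermatan sulfate, fell, with 442, 822 and 637 against 2751, 1965 and 2344 (log2 -1.93, SE 0.28, adjusted p = 0.0287). The call of Chpf2 was lost without any 1 control array or without GapmeR Ntep replicate 3 (adjusted p from 0.0515 to 0.120), and so was that of Ust (0.0648 to 0.129). The call of Chpf was lost without those arrays or without GapmeR Ntep replicate 1 (0.0575 to 0.150). Without experiment 1 Chpf2 alone of the list passed, and Chpf (0.0550) and Ust (0.0543) did not.

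Of 36 genes for partners of matrix assembly (latent TGF-beta, processing proteases, microfibril-associated proteins and receptors), 28 were tested, 17 lower and 11 higher (median -0.50). The adjusted limit was passed by 3 of the 28, 1 higher and 2 lower (5.16% of all genes), and with blocks by 8, 2 higher and 6 lower (13.9%). Without experiment 1 it was passed by 2, 1 higher and 1 lower (2.84%), with Adamtsl4 (0.0563) and Sdc2 (0.0649) outside. Adamtsl4, which binds fibrillin-1 microfibrils, fell, with 287, 756 and 488 against 2558, 2191 and 2495 (log2 -2.35, SE 0.36, adjusted p = 0.0312). Sdc2, syndecan-2, a cell surface heparan sulfate proteoglycan, fell as well, with 3696, 4473 and 3621 against 9330, 9784 and 8179 (log2 -1.21, SE 0.18, adjusted p = 0.0287). Neither range overlapped that of the control arrays. Adamtsl5 read 1539, 2023 and 1724 against 632, 388 and 396 (log2 1.93, SE 0.25, adjusted p = 0.0260), and was lower by another probe (-1.45, adjusted p = 0.0571), with both probes well above background on all arrays, so its direction is not settled. Tgfb2, whose latent form the binding proteins hold, read 1199, 1056 and 989 against 2900, 1768 and 2225 (log2 -1.06, SE 0.23, unadjusted p = 0.00357, adjusted p = 0.0556), past the fold and p limits, and it passed the adjusted limit with blocks (0.0398). The adjusted call was lost without GapmeR control replicate 2, GapmeR control replicate 3 or GapmeR Ntep replicate 3 for Adamtsl5 (0.102 to 0.131), also without GapmeR control replicate 1 for Adamtsl4 (0.0704 to 0.136), and without any array but GapmeR Ntep replicate 2 for Sdc2 (0.0622 to 0.142). For Tgfb2 the fold and p limits were not met without GapmeR control replicate 1, where the difference was -0.88, without experiment 1 (-0.96), nor without GapmeR control replicate 3, GapmeR Ntep replicate 2 or GapmeR Ntep replicate 3, where limma's unadjusted values ran from 0.0132 to 0.0155.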

How the data were processed

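RNA of the 3 experiments was hybridised to 6 Agilent 1-color arrays. The deposited scanner files hold the processed intensity of each spot, which the authors obtained with Feature Extraction 10.7.3.1 after its background correction; probe positions are those of mm9. The authors' value table, a linear intensity quantile-normalized by the authors, served as an alternative and was off by over 0.5 log2 at 77 probes. Here the spots of a probe were averaged, arrays quantile-normalized and values under 20 set to 20, after the study's settings. Probes with a mean of at least 50 under the brighter label were tested on log2 intensity with limma 3.58.1 (lmFit and eBayes, R 4.3.3), unpaired and two-sided, with Benjamini-Hochberg adjustment over 30990 probes. The number of arrays limits the precision: 3 against 3 cannot go below p = 0.1 in an exact permutation test.

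The members, the 2 further lists and the marker lists (fibroblast, macrophage, cartilage, bone, fat, epithelium, endothelium, smooth muscle) were chosen with earlier results of these data known. Array values are given for members past a limit, with a difference of at least 1, or with the 6 brightest probes, and for further members chosen after their values were seen. Replicate numbers come from the study's supplementary lists and were taken to mark the experiment, which the sample labels do not state. The pairing and the blocked fit rest on this reading. Arrays of the same number deviated together (correlations 0.466, 0.300 and 0.254, other pairs -0.327 to 0.126). A simulation drew independent noise for each probe and changed only a small share of the 30260 tested probes. There the fit called 50% of the 4-fold and 0% of the 2-fold changes, with 3 false calls. With so few changed probes, the adjusted limit asks for a lower unadjusted p than it did in the real data. These shares therefore do not say how many true changes the fit above missed.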

Additional observations from a re-analysis of the deposited data

How the results depend on the processing

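Most of the members' values kept their direction under every alternative tried, and the number of calls did not. Over all single genes and alternatives, 698 values kept direction and side of the limit, 75 were no longer past it, 49 newly passed and 19 turned sign. With the replicate block (experiments as pairs) 15 members passed the adjusted limit and 13 the fold and p limits, and of the partner list 8 and 7. Of all genes, 13.9% and 11.1% did so, against 5.16% and 7.89% in the main fit. The block ended the fold and p calls of Efemp2 and Hspg2, and beyond the calls given with the results it changed no other adjusted call among the genes named. Members past the adjusted limit numbered 2 with no intensity minimum, 8 with limma-trend, 24 with array weights and 2 with the methods' t-test (1.75%, 9%, 33.6% and 0.926% of all genes), and past the fold and p limits 4 with 75th percentile scaling, 5 with normexp, 5 with no intensity minimum, 16 with array weights and 3 with the methods' t-test (8.02%, 5.92%, 5.57%, 14.3% and 4.47%). The glycosaminoglycan list gave 1, 8 and 1 adjusted calls with no intensity minimum, array weights and the methods' t-test, and 1 without experiment 1, a setting chosen after seeing the data. Its median was -0.06 with normexp, -0.12 with no minimum, -0.15 with array weights, -0.07 over any probe and -0.16 without experiment 1. The partner list gave 1, 5, 12 and 0 adjusted calls with no minimum, limma-trend, array weights and the methods' t-test (9 at an unadjusted p under 0.05), and medians of -0.06 with normexp, 0.00 with no minimum and -0.22 without experiment 1. For the t-test the share of all genes at that unadjusted limit was not counted. Leaving out single arrays gave 0 to 3 adjusted calls for members and for each of the other lists (0% to 4.34% of all genes), 3 to 9 fold and p calls for members (4.87% to 9.83%), and medians from -0.85 to -0.50 (members), -0.24 to -0.10 (glycosaminoglycan) and -0.67 to -0.23 (partners).

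Few values turned sign: with 75th percentile scaling Nid1 (0.05) and Tnc (0.23), with array weights Thbs2 (-0.29), Tnc (0.01) and Ecm1 (0.08), without experiment 1 Thbs2 (-0.16), Tnc (0.25) and Ecm1 (0.21). Leaving out single arrays gave -0.32 to 0.00 for Nid1 (the latter without GapmeR control replicate 1), -0.57 to 0.64 for Thbs1, -0.55 to 0.57 for Thbs2, -0.28 to 0.21 for Tnc, -0.39 to 0.33 for Ecm1 and -1.06 to 0.13 for the Ntep probe (the latter without GapmeR Ntep replicate 2). The cause was not tested. Members near background, such as Fmod, Mfap2, Comp and Vtn, are limited by their signal, and 6 members had too little to be tested.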
